A study of Homo sapiens with 16 samples.

Results

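The transcripts of 8 genes that restrain signaling to the MAP kinase ERK (DUSP4, DUSP5, DUSP6, SPRY1, SPRY2, SPRY4, SPRED1 and SPRED2) were followed in SUM-225 cells while the HER2 kinase was inhibited. The genes were chosen by name, with earlier results of these same 16 arrays in view, in which a group of ERK output genes stood high at 0 h and low at 3 h. Their time courses are therefore given here as a description. Where the main fit over all probes called some of them, the count is stated beside the share called among all probes. Counts under alternative settings are given without that share, and no count is evidence about the genes. Every probe whose gene symbol is one of the 8 was taken, which gave 11 of the 24526 probes and 8 of the 18631 symbols in the table. SUM-225 is a breast cancer line with amplified and over expressed HER2, and CP724,714 is a small molecule that inhibits HER2 kinase activity. Parallel cultures in Ham's F-12 medium with 5% serum, insulin at 5 µg/ml and hydrocortisone at 1 µg/ml received 1 µM CP724,714 and were harvested every 3 h up to 45 h. These conditions are those of the sample labels. The paper instead states that its SUM225 cells were grown in a medium lacking insulin and epidermal growth factor, and the difference was not resolved here. RNA of each culture was hybridised to 1 Illumina bead array, and the array labelled 0 h belongs to the same treated series. No untreated course was analysed here, so the inhibitor and time in culture cannot be told apart, and each time point was measured on a lone culture without a replicate. The paper states a medium change at the start of treatment for its MCF10A-based time courses. Whether it applied to these SUM-225 cultures is not stated, and its part was not tested.

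Growth factor receptors such as HER2 activate RAS, RAF, MEK and ERK in turn, and active ERK raises the transcription of genes whose products shut the pathway off. DUSP4 and DUSP5 are nuclear phosphatases and DUSP6 is a cytoplasmic phosphatase that remove phosphate from ERK itself. The Sprouty proteins (SPRY1, SPRY2, SPRY4) act between the receptor and RAF, and the SPRED proteins bring the RAS inhibitor neurofibromin to the membrane. Because their transcription follows ERK activity, transcripts of this kind are widely read as a measure of the output of the pathway.

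The sequences before the start sites of 4 of these genes are shown because DUSP6, SPRY4 and SPRY2 had the deepest falls at 3 h among the 8 genes and SPRY1 was the gene whose late course went the other way. They are the 250 bases before the start in RefSeq (build GRCh38.p14), read in the direction of transcription. Capitals mark matches on either strand to CGGAA, a core shared by ETS factors, or to GCGNGGGCG, a sequence bound by EGR factors. Both factor families are known to be regulated by ERK. SPRY1 and SPRY2 are listed with further windows that held no match, and only the window with matches is printed for them. The windows are chr12:89352502-89352751 (minus strand) for DUSP6, chr5:142324248-142324497 (minus strand) for SPRY4, chr13:80341127-80341376 (minus strand) for SPRY2 and chr4:123398136-123398385 (plus strand) for SPRY1.
DUSP6: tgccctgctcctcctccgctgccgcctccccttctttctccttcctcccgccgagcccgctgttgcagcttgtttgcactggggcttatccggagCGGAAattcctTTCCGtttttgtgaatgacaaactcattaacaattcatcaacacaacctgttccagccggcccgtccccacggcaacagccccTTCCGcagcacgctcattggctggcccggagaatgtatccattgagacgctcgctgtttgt
SPRY4: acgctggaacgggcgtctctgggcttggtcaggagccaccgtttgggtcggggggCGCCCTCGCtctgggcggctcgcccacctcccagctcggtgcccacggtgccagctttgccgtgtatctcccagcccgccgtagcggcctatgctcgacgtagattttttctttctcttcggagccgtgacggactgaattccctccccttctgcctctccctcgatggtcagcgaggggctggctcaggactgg
SPRY2: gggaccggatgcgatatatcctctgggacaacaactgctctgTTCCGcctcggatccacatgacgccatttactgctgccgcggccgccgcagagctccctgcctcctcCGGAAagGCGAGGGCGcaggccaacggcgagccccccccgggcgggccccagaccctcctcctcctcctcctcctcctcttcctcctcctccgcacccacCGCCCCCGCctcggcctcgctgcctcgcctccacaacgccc
SPRY1: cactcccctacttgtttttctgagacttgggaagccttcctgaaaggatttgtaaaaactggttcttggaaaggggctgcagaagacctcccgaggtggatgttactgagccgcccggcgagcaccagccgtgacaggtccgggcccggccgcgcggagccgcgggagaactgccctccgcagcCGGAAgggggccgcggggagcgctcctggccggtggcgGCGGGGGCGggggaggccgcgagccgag

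DUSP6 held 3 matches to CGGAA, the nearest at 61 to 57 bases before the start, and none to GCGNGGGCG. SPRY4 held 1 match to GCGNGGGCG and none to CGGAA. SPRY2 held 2 matches to each, and SPRY1 held 1 to each. No match to one motif overlapped a match to the other. Of all 35116 windows of the same length, 30.3% held CGGAA and 8.42% held GCGNGGGCG, so a match is a description of the sequence and no sign of a site in use. The AP-1 sequence TGANTCA (6.57% of all windows) and the CArG box of serum response factor (1.16%) had no match in any of the 10 windows listed for SPRY1, SPRY2, SPRY4, SPRED1, SPRED2 and DUSP6. SPRY1 was listed with 2 windows, SPRY2 with 3 and SPRED2 with 2, and no window of these genes other than those printed held CGGAA or GCGNGGGCG. DUSP4 and DUSP5 are named only.

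Signal intensities were corrected for background, quantile normalized and put on a log2 scale, and all values below are on that scale unless given as a fold. Median raw signals of the arrays ranged from 242 to 384, and 57.5% to 61.5% of probes were detected, which means a detection p-value under 0.05. The 11 luminal and HER2 amplicon markers on the array were detected on all 16 arrays, while of 6 fibroblast markers 4 (VIM, COL3A1, THY1 and PDGFRB) were detected on none and COL1A1 and COL1A2 on 5 each. Of the leukocyte markers PTPRC was detected on none, CD3E on 1, and CD14 and CD68 on all 16. The endothelial markers PECAM1, VWF and CDH5 were detected on 16, 13 and 1. Their part in the results was not tested. Bulk RNA was measured, so a smaller share of cells with a transcript and less of it per cell cannot be told apart.

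Of the 11 probes, 7 were detected on all 16 arrays, with 1 each for DUSP5, DUSP6, SPRY1, SPRY2, SPRY4, SPRED1 and SPRED2. The brighter DUSP4 probe was detected on 15 arrays and missed at 45 h. The dimmer DUSP6 probe was detected on 7 arrays, at 0 h, 9 h, 12 h, 15 h, 18 h, 21 h and 24 h. A second probe of DUSP4 (ILMN_2283398) and a second probe of SPRY1 (ILMN_1769280) were detected on 0 arrays, with detection p-values from 0.176 to 0.908 and from 0.229 to 0.723, and carry no time course. Probes detected on at least 3 arrays entered the fits, which kept 9 of the 11 and 16110 of all probes. The dimmer DUSP6 probe passed this filter through the time points at which it was high, so its inclusion in a count says little. The table does not give the position of the probes in their transcripts.

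**Figure D1:**
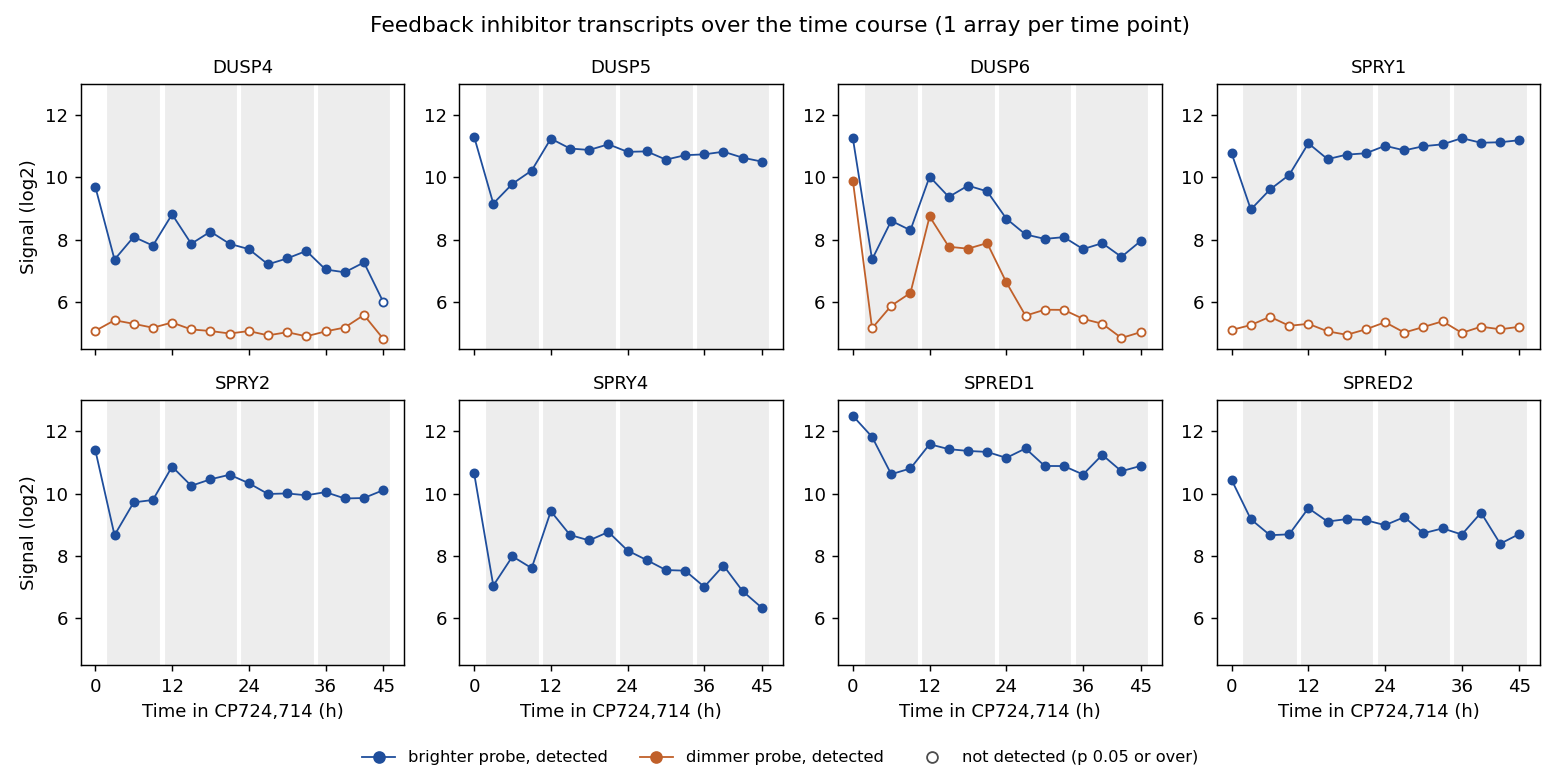
Normalized log2 signal (vertical axis) of all 11 probes against hours in CP724,714, with 1 array per point, blue for the brighter and orange for the dimmer probe of a gene, open circles where the probe was not detected and grey bands for the 4 spans of later time points that were compared. DUSP6 went from 11.25 at 0 h to 7.37 at 3 h and 10.02 at 12 h, whereas SPRY1 ended at 11.19, above its 0 h value of 10.77.

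The course had the same outline for most of the genes. The signal was high at 0 h, lower from 3 to 9 h and higher again at 12 h. After 21 h it went down by more than 1 log2 unit (DUSP4, DUSP6, SPRY4), went down by less than that (DUSP5, SPRY2, SPRED1, SPRED2) or stood above the start (SPRY1). At 3 h 8 of the 9 probes were at least 2-fold below 0 h, against 1.05% of all tested probes. The exception was SPRED1, which stood 1.59-fold below. These counts come from the contrast that was in view when the genes were chosen, and nothing is read from them. With 6 h in place of 3 h the count was 9 (2.64% of all tested probes), and with 9 h in place of 3 h it was 8 (3.28%), both settings chosen after seeing the data. At 12 h it was 3, the DUSP6 probes and SPRY4 (3.92% of all tested probes), and at 45 h it was 7, against 9.3% of all tested probes.

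DUSP6, a phosphatase with a strong preference for ERK, was the furthest below 0 h of the 8 genes at 3 h. Its brighter probe (ILMN_2396020) measured 11.25 at 0 h and then 7.37, 8.60 and 8.30 at 3, 6 and 9 h. It measured 10.02, 9.37, 9.73 and 9.55 from 12 to 21 h. It then measured 8.67, 8.17, 8.03 and 8.08 from 24 to 33 h and 7.70, 7.89, 7.45 and 7.96 from 36 to 45 h. The 3 h array was the lowest of all 16, 14.7-fold below 0 h, and the 12 h array was 3.29-fold above the 9 h array. All 4 values from 12 to 21 h lay above all 3 values from 3 to 9 h and above all 8 later values. The dimmer probe (ILMN_1677466) measured 9.89 at 0 h and 8.74 at 12 h. It was not detected at 3 h, where it was at least 13.4-fold below 0 h, nor at 6 h or from 27 h on, with bounds from 12.5-fold to 15.1-fold. The courses of the pair had a Pearson r of 0.98 over the 16 arrays, which they share.

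DUSP4 and DUSP5, the nuclear phosphatases, stood apart by 9 h, at 27.1% and 47.1% of their 0 h signals. The DUSP4 probe (ILMN_1808391) measured 9.69 at 0 h, 7.36, 8.09 and 7.81 from 3 to 9 h and 8.81, 7.87, 8.26 and 7.87 from 12 to 21 h. It went on to 7.70, 7.21, 7.40 and 7.64 from 24 to 33 h and to 7.05, 6.96, 7.27 and 6.02 from 36 to 45 h. DUSP4 at 3 h was 5.02-fold below 0 h, and at 45 h, where it was not detected, it was at least 10.9-fold below. The 12 to 21 h values of DUSP4 overlapped those of 3 to 9 h, and every value from 36 h on lay below them.

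DUSP5 (ILMN_1656501) measured 11.30 at 0 h, 9.16, 9.79 and 10.22 from 3 to 9 h and 11.24, 10.92, 10.88 and 11.06 from 12 to 21 h. It measured 10.82, 10.83, 10.56 and 10.71 from 24 to 33 h, and 10.73, 10.82, 10.63 and 10.50 from 36 to 45 h. DUSP5 was 4.42-fold below 0 h at 3 h and stood at 95.7% of its 0 h signal at 12 h, the figure being 54.3% for DUSP4 and 42.8% for the brighter DUSP6 probe. From 12 h on DUSP5 never stood 2-fold below 0 h, and at 45 h it was 1.74-fold below.

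SPRY4, which like the other Sproutys acts upstream of RAF, had a course close to that of DUSP6. Its probe (ILMN_2086105) measured 10.65 at 0 h, 7.05, 7.99 and 7.61 from 3 to 9 h and 9.43, 8.67, 8.50 and 8.77 from 12 to 21 h. It measured 8.17, 7.87, 7.55 and 7.53 from 24 to 33 h, and 7.01, 7.69, 6.87 and 6.34 from 36 to 45 h. SPRY4 was 12.1-fold below 0 h at 3 h, 2.33-fold below at 12 h and 19.9-fold below at 45 h, where its detection p-value was 0.0324. Thus the last array was lower than the 3 h array for SPRY4, which was not so for the brighter DUSP6 probe.

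SPRY2 (ILMN_2089329) measured 11.39 at 0 h, 8.67, 9.72 and 9.79 from 3 to 9 h and 10.86, 10.25, 10.46 and 10.60 from 12 to 21 h. It measured 10.33, 9.99, 10.004 and 9.94 from 24 to 33 h, and 10.05, 9.84, 9.86 and 10.11 from 36 to 45 h. SPRY2 was 6.59-fold below 0 h at 3 h and came back to 69.6% of its 0 h signal at 12 h. It settled at a level between its minimum and its start, with 41.2% of the 0 h signal at 45 h.

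SPRY1 (ILMN_2329914) was the exception in the late course. It measured 10.77 at 0 h, 8.97, 9.61 and 10.08 from 3 to 9 h and 11.09, 10.58, 10.73 and 10.77 from 12 to 21 h. It measured 11.01, 10.86, 10.996 and 11.06 from 24 to 33 h, and 11.25, 11.10, 11.12 and 11.19 from 36 to 45 h. SPRY1 was 3.48-fold below 0 h at 3 h, and 10 of the 15 later arrays lay above the 0 h array. Its highest value was at 36 h, while the other 8 tested probes were highest at 0 h. All 4 values of SPRY1 from 36 to 45 h lay above all 4 from 12 to 21 h.

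The SPRED genes fell more slowly than the DUSP and SPRY genes. SPRED1 (ILMN_1804277) measured 12.49 at 0 h, 11.82, 10.62 and 10.80 from 3 to 9 h and 11.58, 11.42, 11.37 and 11.33 from 12 to 21 h. It measured 11.14, 11.44, 10.88 and 10.88 from 24 to 33 h, and 10.61, 11.24, 10.72 and 10.89 from 36 to 45 h. SPRED1 reached the low point of its early course at 6 h, 3.65-fold below 0 h, and went lowest by a small margin at 36 h. SPRED2 (ILMN_1791232) measured 10.44 at 0 h, 9.18, 8.67 and 8.69 from 3 to 9 h and 9.53, 9.10, 9.18 and 9.15 from 12 to 21 h. It measured 8.99, 9.25, 8.73 and 8.88 from 24 to 33 h, and 8.69, 9.39, 8.39 and 8.71 from 36 to 45 h. SPRED2 was also lowest of the early arrays at 6 h, 3.41-fold below 0 h. Both genes were higher at 39 h than at 36 or 42 h, and their courses had a Pearson r of 0.93 over the 16 arrays.

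**Figure D2:**
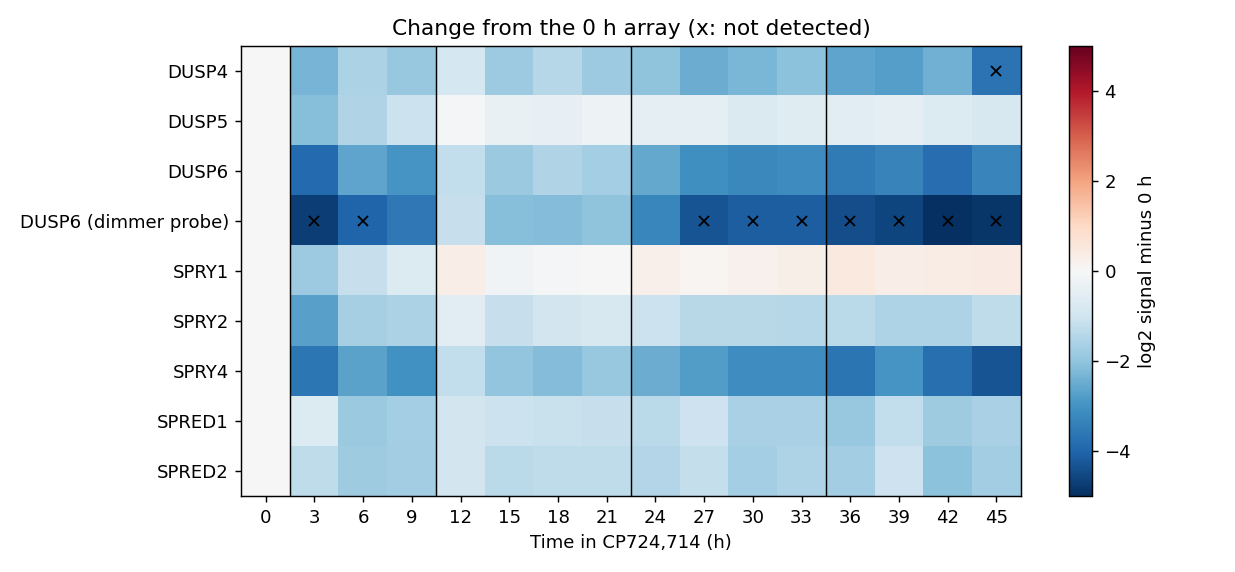
Change in log2 signal from the 0 h array (colour) for the 9 tested probes (rows) at each time point in hours (columns), with crosses where a probe was not detected and lines between the spans compared. SPRY1 was below 0 h up to 9 h and above it at most later times, and the 3, 12 and 45 h arrays of SPRY4 stood at -3.60, -1.22 and -4.31.

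The genes differed in how alike their courses were. Over the 16 arrays, which all points share, DUSP6 and SPRY4 had a Pearson r of 0.95, DUSP4 and SPRY4 of 0.92, and DUSP5 and SPRY2 of 0.89. SPRY1 had an r of 0.82 with DUSP5 and of 0.58 with SPRY2, but 0.10 with DUSP6, 0.04 with SPRY4, -0.15 with DUSP4 and -0.17 with SPRED1. Thus the closest of the 8 was a SPRY gene for each DUSP gene and a DUSP gene for each SPRY gene, while SPRED1 and SPRED2 were closest to each other.

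For a comparison of spans, the 0 h array stood alone and the later arrays were grouped as 3 to 9 h, 12 to 21 h, 24 to 33 h, and the last 4 from 36 h on. These limits were noticed in the data. They are also the limits of sets of 4 consecutive arrays counted from 0 h. The labels name no batch, and whether the arrays were run in such sets is not stated. The steps from 9 to 12 h, 21 to 24 h and 33 to 36 h had root mean square differences of 0.42, 0.36 and 0.33 over all tested probes, where the other 12 steps had 0.26 to 0.42. A difference between spans from 12 h on and one between such sets cannot be told apart, whereas the 0 h array lies in the set of the 3 to 9 h arrays. Differences have standard errors from the scatter within spans, and consecutive time points are not replicates.

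From 0 h to the mean of 3 to 9 h, DUSP6 fell by 3.15 ± 0.35 (SE, 8.90-fold) and SPRY4 fell by 3.10 ± 0.42 (8.59-fold). SPRY2 fell by 1.99 ± 0.31, DUSP4 by 1.94 ± 0.40, SPRED2 by 1.59 ± 0.29, DUSP5 by 1.58 ± 0.25, SPRED1 by 1.41 ± 0.32 and SPRY1 by 1.22 ± 0.26. The dimmer DUSP6 probe was detected on 1 of the 3 arrays of 3 to 9 h, and with the undetected values at their floor it was at least 12.7-fold lower. All 9 tested probes passed the threshold as lower (adjusted p under 0.05 in limma over all tested probes), against 1.19% of all tested probes lower and 1.14% higher. With median scaling in place of quantile normalization, 311 probes were lower and 128 higher, against 192 and 184. This is the contrast by which the genes came into view, so the count is no result about them. It rests on the lone 0 h array, which was assumed to vary like the others. The call of SPRED1 was lost without the 6 h array (-1.18) and without the 9 h array (-1.27).

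From 3 to 9 h to 12 to 21 h, 5 of the 8 genes rose by more than 1 log2 unit. DUSP6 was higher by 1.58 ± 0.23, DUSP5 by 1.30 ± 0.17, SPRY4 by 1.29 ± 0.28, SPRY1 by 1.24 ± 0.17 and SPRY2 by 1.15 ± 0.20. The dimmer DUSP6 probe, undetected on 2 of the 3 earlier arrays, was at least 3.501-fold higher. The differences of DUSP4 (0.45 ± 0.27), SPRED2 (0.40 ± 0.19) and SPRED1 (0.35 ± 0.21) did not pass the threshold. Without the 3 h array SPRED1 passed it (0.71), and with array weights SPRED1 and SPRED2 did (0.68 and 0.51). Thus 6 of the 9 probes, or 5 of 8 without the dimmer DUSP6 probe, were called higher, against 14.8% of all tested probes higher and 12.9% lower. The same 6 had all 12 to 21 h values above all 3 to 9 h values, against 15.9% of all tested probes. The 3 to 9 h span holds the 3 h array, at which ERK output genes had been seen low. These counts and the regained percentages below are therefore a description and no result about the genes. Expressed against the preceding fall, SPRY1 had regained 102% and DUSP5 82.4% by 12 to 21 h, SPRY2 57.7%, DUSP6 49.99%, SPRY4 41.7%, SPRED2 24.9%, SPRED1 24.5% and DUSP4 23.1%.

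Much of the regain came in the step from 9 to 12 h. At this step 9 of 9 probes went up, by a median of 1.02, where 51.6% of all tested probes went up. Of the 9, 7 rose at least 2-fold, against 1.16% of all tested probes. SPRED1 (1.71-fold) and SPRED2 (1.79-fold) were the other two. This step lies at a limit between the sets of consecutive arrays counted above. Within the early set 7 of the 9 probes went up between 3 and 9 h, as did 51.5% of all tested probes. That interval starts at the 3 h array, so its count is no result about the genes either. SPRY2 went up by 1.13, SPRY1 by 1.11, DUSP5 by 1.06 and DUSP6 by 0.94 in these 6 h, SPRY4 by 0.56 and DUSP4 by 0.45, whereas SPRED1 fell by 1.01 and SPRED2 by 0.48. Within the set from 12 to 21 h all 9 probes fell, by 0.18 (DUSP5) to 0.94 (DUSP4), and 9 of 9 went down in the step from 12 to 15 h, whereas 50.04% and 49.7% of all tested probes went up in these intervals. The 12 h array was the highest of its set for every tested probe of the 8 genes, and the share of all probes for this is not given here.

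From 12 to 21 h to 36 to 45 h the genes went separate ways. DUSP6 fell by 1.92 ± 0.22 (3.78-fold), SPRY4 by 1.86 ± 0.26 (3.64-fold) and DUSP4, not detected on 1 of the 4 last arrays, by 1.38 ± 0.25 (2.60-fold, or at least 2.50-fold with that value at its floor). SPRY2 fell by 0.58 ± 0.19 and SPRED1 by 0.56 ± 0.20. Of the dimmer DUSP6 probe, not detected on any array of the last span, only a bound can be given, at least 3.83-fold lower. The differences of SPRED2 (-0.45 ± 0.18), DUSP5 (-0.35 ± 0.16) and SPRY1 (0.38 ± 0.16, the only positive value) did not pass the threshold. Thus 6 of the 9 probes, or 5 of 8 without the dimmer DUSP6 probe, were called lower, against 10.6% of all tested probes lower and 11.1% higher. The last 4 arrays all lay below those of 12 to 21 h for 7 of the 9 probes, DUSP5 included, against 12.3% of all tested probes. The call of SPRED1 was lost in 10 of 16 refits that left out 1 array (12, 15, 18, 21, 24, 30, 33, 36, 42 or 45 h), and that of SPRY2 without the 12, 18, 21, 39 or 42 h array. DUSP5 and SPRY1 passed the threshold without the 3 h or the 9 h array and SPRED2 without the 39 h array. With array weights SPRY1 was called higher (0.40) and DUSP5 lower (-0.28). Within the last set, from 36 to 45 h, DUSP4 was at least 1.75-fold lower (not detected at 45 h), SPRY4 fell by 0.67, and SPRED1 and DUSP6 went up by 0.28 and 0.26.

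**Figure D3:**
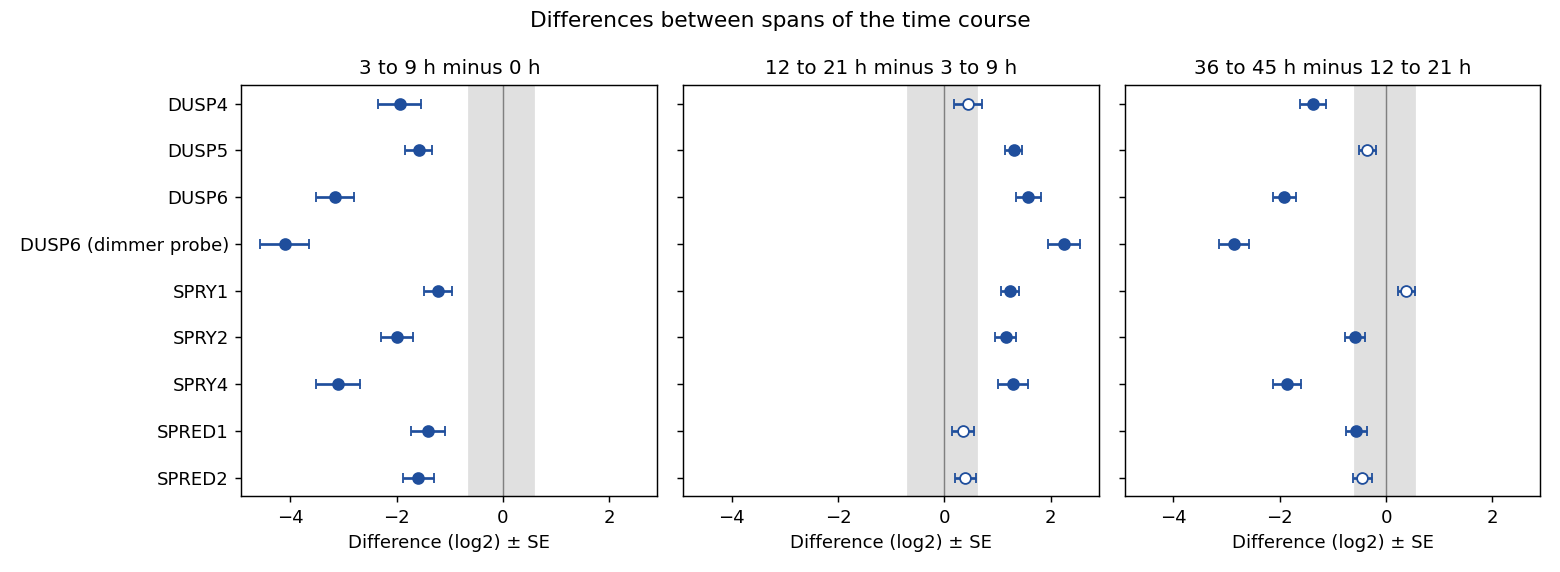
Differences in log2 signal between spans of the time course (horizontal axis) with standard errors for the 9 tested probes, filled where the probe passed the threshold, and the range holding the middle 90% of all 16110 tested probes in grey (the dimmer DUSP6 probe is drawn with values below detection, which overstate what could be measured). All 9 estimates lie below 0 in the left panel, with SPRY1 nearest to it at -1.22, and SPRY1 is the only one above 0 in the right panel at 0.38.

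The median over the 9 probes was -1.94 for 3 to 9 h against 0 h, 1.24 for the next difference and -0.58 for the last, beside medians of 0.01, 0.04 and 0.01 over all tested probes. A cubic course in hours was fitted as a measure of time dependence over the whole series. DUSP4, SPRY1, SPRY4, SPRED1, SPRED2 and the dimmer DUSP6 probe passed its threshold, 6 of 9, against 51.3% of all tested probes. DUSP5, SPRY2 and the brighter DUSP6 probe did not, and their scatter around the cubic (residual SD of 0.55, 0.65 and 0.98) was larger than their scatter within spans (0.26, 0.32 and 0.37). The count was 3 of 9 without the 42 h array and also 3 without the 45 h array.

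The genes most like the mean course of the 8 feedback inhibitors were sought over all tested genes by Pearson r over the 16 arrays. The highest values were those of PHLDA1 (0.97), the immediate early gene IER3 (0.95), TRIB1 (0.95), which encodes a pseudokinase, the HSP70 cochaperone BAG3 (0.93) and ERRFI1 (0.93), whose product MIG6 binds and inhibits ERBB receptors. Relative to 0 h PHLDA1 stood at -3.27 at 3 h and -0.87 at 12 h, and IER3 at -2.74 and -1.23. The lowest values were those of ZNF395 (-0.89), FAM13A1 (FAM13A in RefSeq, -0.88), CCNG2 (-0.88), FBXO32 (-0.84) and FLJ20152 (-0.84). CCNG2, a cyclin that accompanies cell cycle exit, was 1.63 above 0 h at 3 h, 1.09 above at 12 h and 1.97 above at 45 h. FBXO32, a ubiquitin ligase subunit, was 1.58, 0.99 and 1.34 above on the probe that was matched. PHLDA1 and ERRFI1 are also in the pathway lists below.

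**Figure D4:**
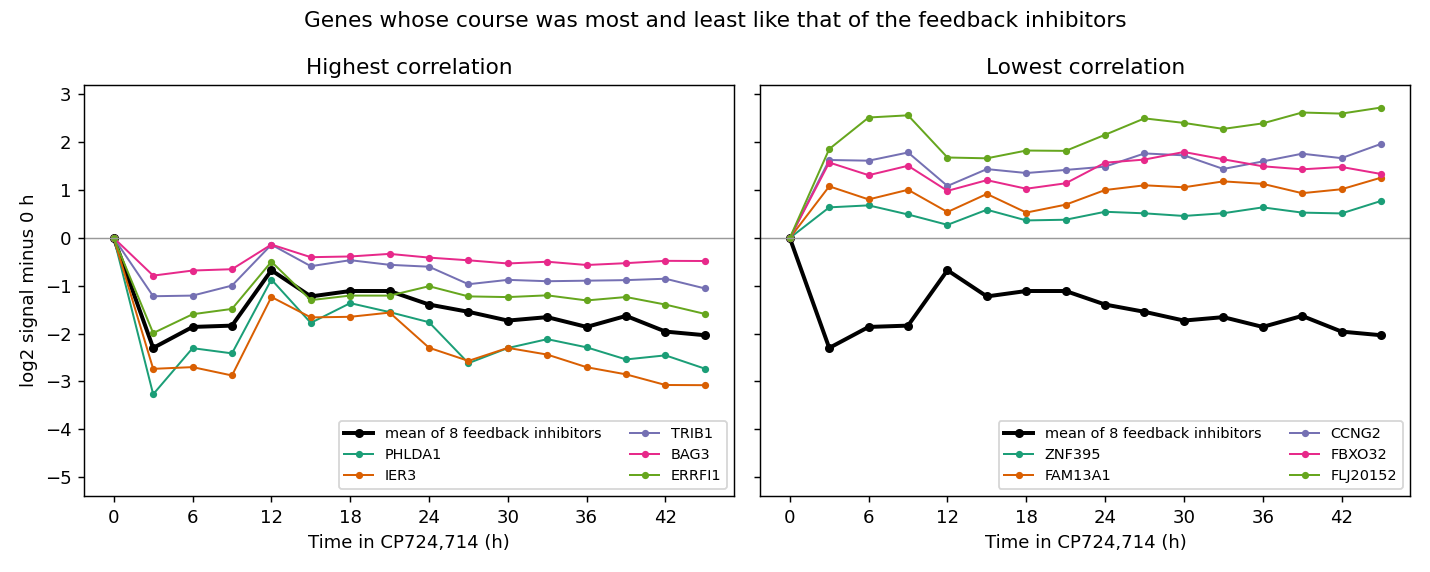
Change in log2 signal from 0 h against hours in CP724,714 for the mean of the 8 feedback inhibitors (black, brightest probe per gene) and for the 5 genes of highest (left) and lowest (right) Pearson r with it. The genes on the left share the low values at 3 h and the peak at 12 h, where TRIB1 stood at -0.14, and the 5 on the right rise by 0.64 to 1.86 at 3 h.

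The single genes had partly different neighbors. IER3 and PHLDA1 were closest to DUSP6 (0.95 and 0.95) and to SPRY4 (0.95 and 0.91), and the transcription factor MYC was closest to SPRY2 (0.96). SPRY1 was closest to TGIF1 (0.95), a homeobox corepressor, and to PFKFB3 (0.95), an activator of glycolysis. DUSP5 was closest to FAM84B (0.93), DUSP4 to the splicing factor PRPF3 (0.90), and SPRED1 and SPRED2 both to the interferon gamma receptor IFNGR1 (0.95 and 0.91).

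The other genes of the pathway were taken from 7 lists with 50 genes, of which 49 were on the array and 43 were tested, by the brightest probe of each. The lists were written with earlier results of these data known. In those, ERK output genes stood high at 0 h and low at 3 h. Counts and p-values of the lists for 3 to 9 h against 0 h are therefore a description and no result about the genes. The same holds for 12 to 21 h against 3 to 9 h, which uses the same 3 h array. Because the spans too were noticed in these data, p-values for 36 to 45 h against 12 to 21 h are also descriptive. From the lone 0 h array to 3 to 9 h, 5 of 43 were lower and 2 were higher (limma, adjusted over all tested probes, where 1.19% were lower and 1.14% higher), and 36 were neither. The 5, named after their values were seen, were PHLDA1 (-2.66 ± 0.34, adjusted p = 0.000164), EPHA2 (-1.88 ± 0.26, adjusted p = 0.000331), ERRFI1 (-1.69 ± 0.24, adjusted p = 0.000371), the cyclin CCND1 (-1.52 ± 0.32, adjusted p = 0.0129) and DUSP10 (-0.96 ± 0.24, adjusted p = 0.0384). DUSP10 is a phosphatase of JNK and p38, and its second detected probe differed by -0.52. The 2 were the HER2 partner ERBB3 (1.18 ± 0.19, adjusted p = 0.00146), whose other probes differed by 0.52 and 0.53, and the ubiquitin ligase CBLB (0.72 ± 0.18, adjusted p = 0.0444). The count of lower genes was 8 without the 3 h array and 3 without the 6 h array. That of higher genes was 4 without the 3 h array and 1 in 12 of the other refits, those without the 6 h, 9 h, 12 h, 15 h, 18 h, 21 h, 27 h, 30 h, 33 h, 36 h, 39 h or 42 h array.

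Among the other MAP kinase phosphatases, 5 of 7 were tested, 1 was lower at 3 to 9 h and 3 were higher at 12 to 21 h than at 3 to 9 h. Of all tested probes 1.19% were lower in the former comparison and 14.8% higher in the latter. The largest rise in this step was that of DUSP8 (1.23 ± 0.23, adjusted p = 0.000646, at least 2.02-fold with the undetected 3 h value at its floor), followed by DUSP10 (0.58 ± 0.16, adjusted p = 0.00941), whose other detected probe differed by 0.08. DUSP1, a phosphatase induced by stress as well as by growth factors, did not pass the test at 3 to 9 h (0.33 ± 0.14, adjusted p = 0.255) and rose from 12 to 21 h to 36 to 45 h (0.51 ± 0.09, adjusted p = 0.000332). Of the other Sprouty family members SPRY3 was not tested, and SPRED3, detected on 4 arrays, passed no test.

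The signal passes from the receptor through adaptors and kinases. Of 7 RAS and RAF genes, 0 were called by limma at 3 to 9 h against 0 h (2, HRAS and BRAF, at an unadjusted p under 0.05). Of 6 MEK, ERK and RSK genes also 0 were called (2, RPS6KA1 and RPS6KA2, at an unadjusted p under 0.05). Of all tested probes 1.19% were called lower and 1.14% higher, so counts of 0 are near that share and no result about these genes. The share of all probes at an unadjusted p under 0.05 is not given here. Later differences that passed included those of HRAS (-0.60 ± 0.11, adjusted p = 0.00039), RPS6KA2 (0.49 ± 0.17, adjusted p = 0.0368, but 0.01 on its other detected probe), SHOC2 (0.47 ± 0.13, adjusted p = 0.00888) and MAPK3, which encodes ERK1 (-0.31 ± 0.08, adjusted p = 0.0071), all for 12 to 21 h against 3 to 9 h. From there to 36 to 45 h RPS6KA2 (0.58 ± 0.16, adjusted p = 0.0122) and RPS6KA3 (0.37 ± 0.11, adjusted p = 0.0235) rose. Of 9 receptors and adaptors, GAB1 (0.77 ± 0.21, adjusted p = 0.00954) and SHC1 (0.39 ± 0.10, adjusted p = 0.00821) rose at 12 to 21 h, but another detected probe of each differed by -0.18 and -0.29. GAB1 was undetected on 2 of the 3 earlier arrays and at least 1.46-fold higher with those at their floor. ERBB3 rose (0.37 ± 0.12, adjusted p = 0.0297) and PTPN11 fell (-0.24 ± 0.07, adjusted p = 0.022) from there to 36 to 45 h.

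Of the 10 other inhibitors of the pathway, ERRFI1 had the course most like the feedback inhibitors and rose at 12 to 21 h (0.64 ± 0.16, adjusted p = 0.00489). LZTR1, which targets RAS for degradation, rose at 12 to 21 h (0.26 ± 0.09, adjusted p = 0.0378) and again at 36 to 45 h (0.35 ± 0.08, adjusted p = 0.00437). PEBP1, a RAF inhibitor, rose at 36 to 45 h (0.48 ± 0.07, adjusted p = 5.03e-05). In the list of other ERK-responsive genes PHLDA1 rose at 12 to 21 h (1.27 ± 0.23, adjusted p = 0.000382) and fell after it (-1.11 ± 0.21, adjusted p = 0.000711). The ETS factor ETV4 fell at 12 to 21 h (-1.31 ± 0.27, adjusted p = 0.00136). At 36 to 45 h it was detected on 0 of 4 arrays and was at least 1.98-fold lower than at 12 to 21 h (adjusted p = 0.000551). ETV5 fell at 36 to 45 h (-1.96 ± 0.39, adjusted p = 0.001) on its brighter probe, and its other probe differed by 0.01. At 3 to 9 h against 0 h the brighter ETV5 probe had already differed by -2.01 ± 0.63, short of the threshold. The other ETV5 probe differed by -0.55 there. Thus over all 43 genes 11 were higher and 4 lower at 12 to 21 h against 3 to 9 h, and 8 were higher and 4 lower at 36 to 45 h against 12 to 21 h. Among all tested probes 14.8% were higher and 12.9% lower in the former and 11.1% and 10.6% in the latter. The 4 lower genes at 12 to 21 h became 8 without the 9 h array, and the 8 higher genes at 36 to 45 h became 5 without the 12 h or the 15 h array.

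**Figure D5:**
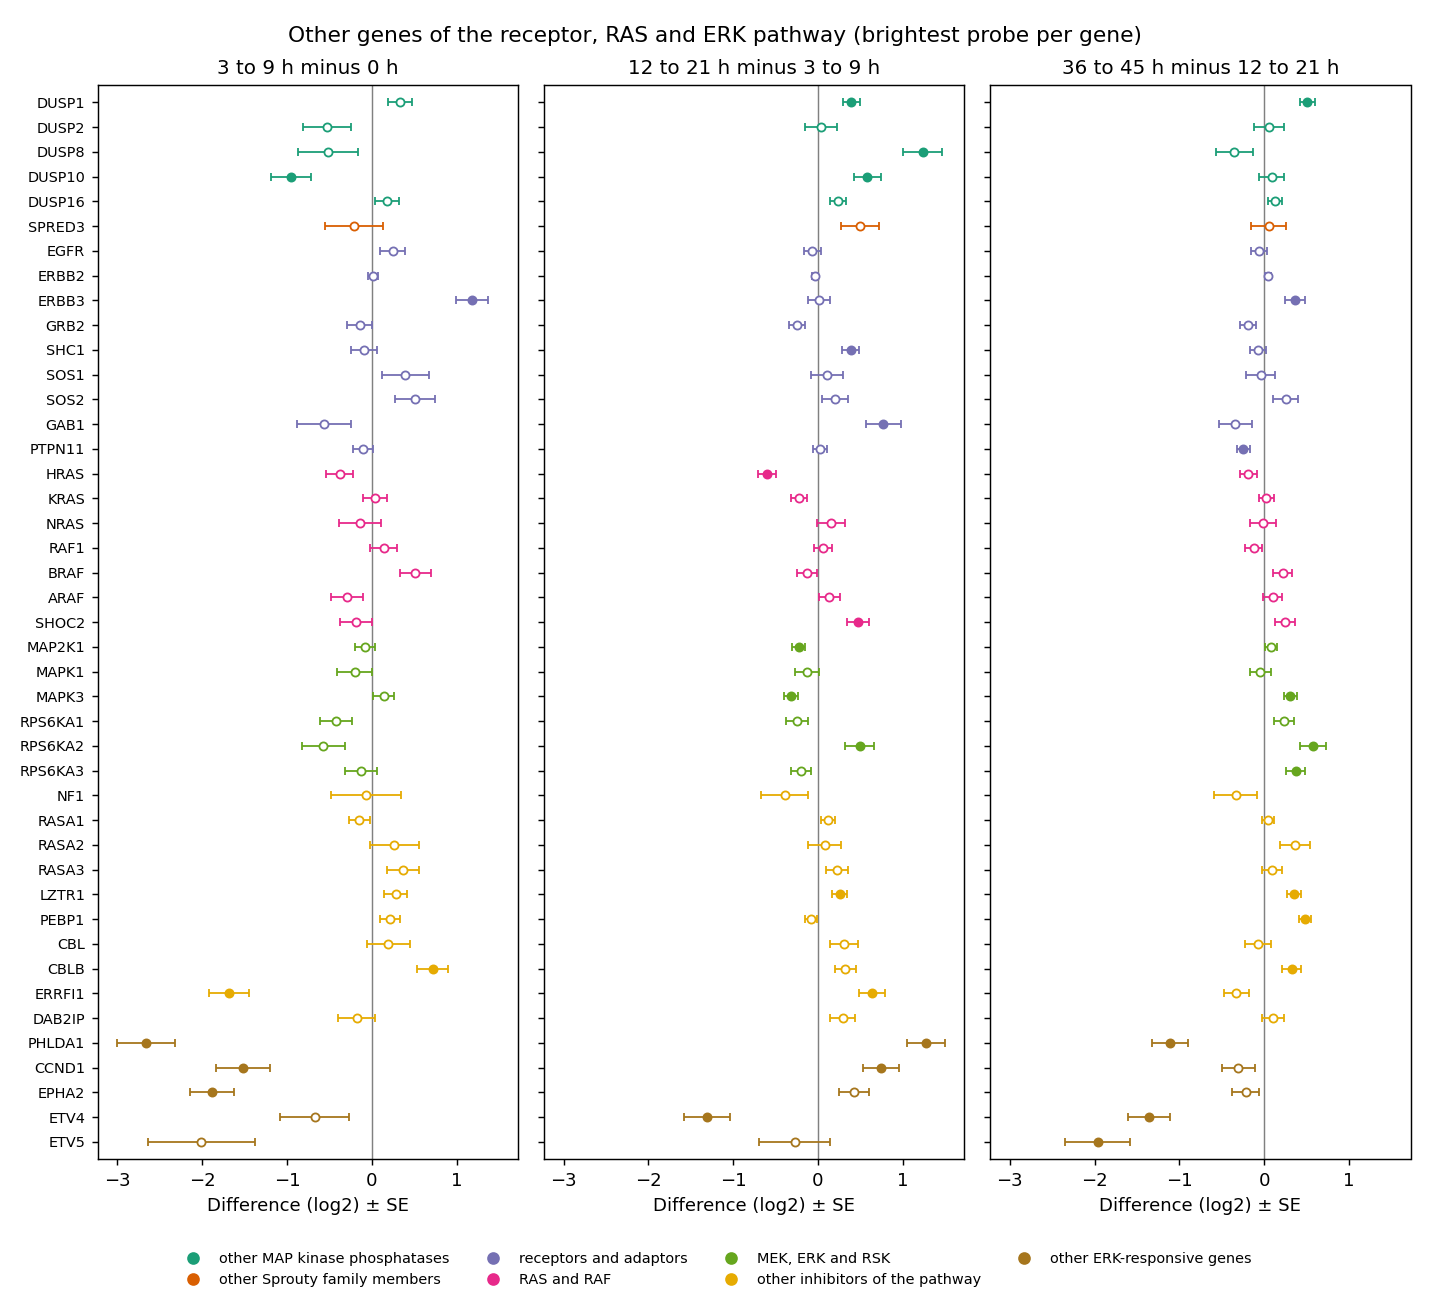
Differences in log2 signal between spans (horizontal axis) with standard errors for the 43 tested genes of the pathway lists, coloured by list and filled where the gene passed the threshold (ETV4 was not detected from 36 h on). In the left panel PHLDA1 (-2.66), ETV5 (-2.01, not past the threshold), EPHA2 (-1.88), ERRFI1 (-1.69) and CCND1 (-1.52) lie far below 0. The RAS, RAF, MEK, ERK and RSK genes there lie between -0.58 and 0.51.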

How the data were processed

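Biotinylated cRNA of each SUM-225 culture was hybridised to an Illumina bead array. The deposited table gives linear signal intensity without background subtraction or normalization, and a deposited detection p-value per probe and array. The scanning software and genome build are not given in the sources used here. Signals were background corrected (offset 16), quantile normalized and log2 transformed with neqc of limma 3.58.1 in R 4.3.3, starting from the deposited intensities, not from log2 values of the authors. The offset reduces folds of dim probes. A probe entered the fits where its detection p was below 0.05 on 3 or more arrays. Spans of time points and a cubic in hours were fitted with lmFit and eBayes with an intensity trend, and p-values were adjusted by the Benjamini-Hochberg method over 16110 probes. All tests were two-sided, and the code was checked on simulated data. With 1 array per time point, errors measure scatter within spans or around the cubic, which may be technical, and precision is limited by the 16 arrays.

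The members, lists and spans were chosen with earlier results of these data known. All probes of the 8 members are named. From each list the 2 genes with the largest difference between 12 to 21 h and 3 to 9 h, and the 2 with the largest between 36 to 45 h and 12 to 21 h, were named among those past the threshold, besides the 5 genes with the highest and lowest correlation with the members' mean and up to 3 per member. All 50 list symbols and 8 member symbols matched RefSeq (GRCh38.p14). An undetected value was replaced by the lowest detected log2 value of that array, unless its own was higher, and the fold then is a lower bound. Alternatives were median scaling or cyclic loess, no background correction or an offset of 50, a filter of detection throughout or none, array weights, a natural spline or straight line in hours, a threshold of 1.7-fold, another reference, and each array left out. Plots were made with matplotlib 3.10.9 (Python 3.11.15).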

Additional observations from a re-analysis of the deposited data

How the results depend on the processing

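No difference of a member probe changed sign under any background, offset, scaling, filter or weighting setting tried, or without any array. All 9 probes stayed lower at 3 to 9 h than at 0 h in these settings, except that 7 remained to be tested when detection on all 16 arrays was required and 8 passed without the 6 h or the 9 h array. Leaving out 1 array at a time, the count called was 6 to 7 for 12 to 21 h against 3 to 9 h, 4 to 7 for 36 to 45 h against 12 to 21 h, and 3 to 7 for the cubic. A spline with 5 degrees of freedom and a straight line each called 7. The cubic had called 6 of 9, and 51.3% of all tested probes. Shares of all probes under the alternatives are not given, so the member counts show only how far the calls moved. The count at least 2-fold lower at 3 h was 8, and 5 with the mean over all arrays as reference, where the reference itself holds the later low values. Without the 0 h array this count and the differences from 0 h could not be computed. With array weights 8 probes were called for 12 to 21 h and 9 pathway genes were lower and 6 higher at 3 to 9 h, and 7 were lower at 12 to 21 h, against 5, 2 and 4, the cause of which was not tested. The count of 2 higher pathway genes was 1 with no background correction, median scaling or no filter. SPRED1 lost its call for 36 to 45 h without a filter on low values, where more probes are tested, and SPRED2 gained it under median scaling (-0.51). Probes near background (DUSP4 late, the dimmer DUSP6 probe, SPRY4 at 45 h) give only bounds or understated folds. No paired analysis was possible because only 1 array stood at any time point.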
